A study of Mus musculus with 8 samples.

Results

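The comparison set 2 mouse retina arrays against the 3 wild-type arrays of the same series. The 2 arrays carried a mutant label, ko/wt replicate 1 (heterozygous Nxnl1 null) and ko/ko replicate 2 (homozygous Nxnl1 null), yet had Nxnl1 at wild-type level. They were the members of the 5 mutant-labelled arrays on which the brighter Nxnl1 probe set read 7.5 or above on the log2 scale. The other 3 mutant-labelled arrays (ko/wt replicate 2, ko/ko replicates 1 and 3) read below it and are shown only beside the results. Of the 8 arrays of the series, 5 therefore entered the comparison. The series' design text speaks of 9 samples; 1 of them was not analysed here. All retinas came from the strain labelled BALB/c AJ, at postnatal day 40, with the pigment epithelium dissected away, and total RNA was hybridised to Affymetrix 3' expression arrays. How the null allele was built, and whether the Nxnl1 probe sets lie in its deleted part, is not stated in those labels. The question was whether arrays that carry a mutant label but keep the Nxnl1 transcript differ from wild type. The genotype of these 2 samples was taken from their labels alone. The labels do not tie the arrays to individual mice, so how much of the array-to-array spread behind every p-value here is technical is not known. Wild-type arrays 1 and 2 differed from wild-type array 3 in Y-linked transcripts, given below.

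Nxnl1 is the gene of RdCVF, the rod-derived cone viability factor, which resembles thioredoxin and is made by photoreceptors. A short splice form is secreted by rods and supports cone survival through basigin and glucose uptake, and the long form has a thioredoxin fold. Nxnl2 is its paralog, also expressed in photoreceptors. The level of the Nxnl1 transcript serves as a check of the labels as far as the probe sets lie in the deleted part.

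The promoters of both paralogs are shown because their transcripts were both near wild-type level on these 2 arrays and, by their brighter probe sets, lower on the other 3 mutant-labelled arrays. The 250 bases before the annotated start were taken from RefSeq (GRCm38.p6), for Nxnl1 at chr8:71566650-71566899 on the minus strand and for Nxnl2 at chr13:51170775-51171024 on the plus strand. Capitals mark matches to TAATCN, the core bound by the photoreceptor homeobox factors CRX and OTX2, searched on both strands.
Nxnl1: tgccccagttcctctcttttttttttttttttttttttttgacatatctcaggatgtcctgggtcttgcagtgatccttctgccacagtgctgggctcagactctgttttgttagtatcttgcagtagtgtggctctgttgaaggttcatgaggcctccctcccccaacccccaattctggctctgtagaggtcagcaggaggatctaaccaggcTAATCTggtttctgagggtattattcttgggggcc
Nxnl2: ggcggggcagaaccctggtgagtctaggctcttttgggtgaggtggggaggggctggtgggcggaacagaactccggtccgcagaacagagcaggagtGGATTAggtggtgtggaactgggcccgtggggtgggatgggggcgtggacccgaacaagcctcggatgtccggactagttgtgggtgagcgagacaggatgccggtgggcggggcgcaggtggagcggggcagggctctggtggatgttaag
Each holds 1 match, at position -35 from the start of Nxnl1 and, on the reverse strand, at -152 from that of Nxnl2. Of 32851 promoters of the same length, 6502 (19.8%) hold the motif. A match describes the letters only.

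Nxnl1 chose the arrays, so its values are a description and were not tested. Its brighter probe set read 9.22, 8.87 and 8.65 (log2 RMA expression) on wild-type arrays 1, 2 and 3, and 8.65 and 8.76 on ko/wt 1 and ko/ko 2. On ko/wt 2, ko/ko 1 and ko/ko 3 it read 6.75, 6.13 and 6.13. The array just inside the threshold thus stood at 8.65 and the one just outside at 6.75. The dimmer probe set, which the rule did not use, read 6.21, 6.76 and 6.70 in wild type, 6.79 on ko/wt 1, 6.62 on ko/ko 2, and 5.48, 5.47 and 5.56 on the other mutant-labelled arrays. On both probe sets the 2 arrays overlapped wild type and stood clear of the other 3.

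Nxnl2 was likewise at wild-type level. Its brighter probe set read 11.58, 11.88 and 11.65 in wild type, 11.60 on ko/wt 1 and 11.79 on ko/ko 2. The groups overlapped, with a difference of -0.0055 (SE 0.13 in the limma fit, 95% interval -0.32 to 0.31) and an exact two-sided permutation p of 1.0, where 2 arrays against 3 cannot give less than 0.2. The dimmer probe set differed by 0.22 (SE 0.15) with an exact permutation p of 0.4. On ko/wt 2, ko/ko 1 and ko/ko 3 the brighter probe set read 11.23, 11.18 and 11.19, below all 5 arrays of the comparison. The dimmer one read 8.28, 7.99 and 8.56 there, and on it ko/ko 3 lay above wild-type array 1 (8.48).

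**Figure D1:**
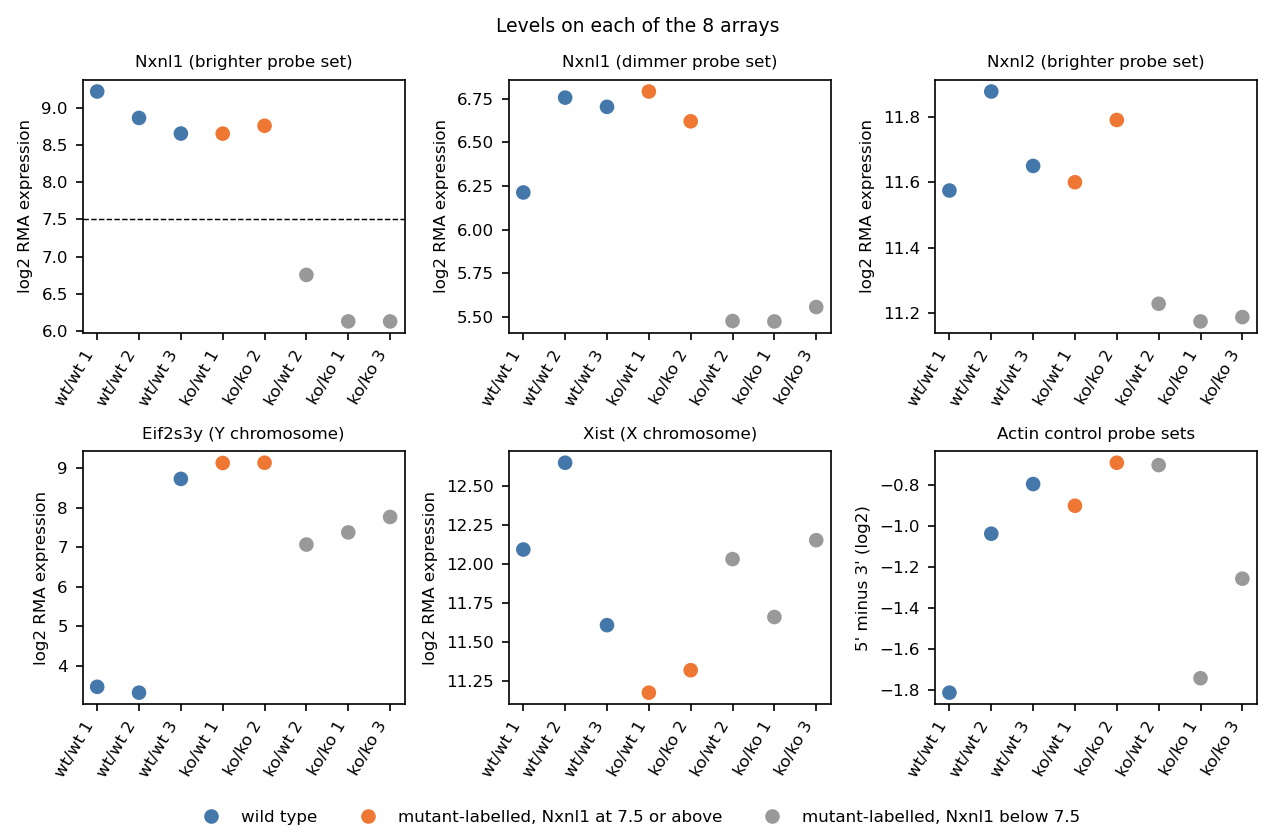
Log2 RMA expression on each of the 8 arrays (horizontal axis) for both Nxnl1 probe sets, Nxnl2, the Y-linked Eif2s3y and the X-linked Xist, and the log2 gap between the 5' and 3' actin controls; 1 point per array, and the vertical axes do not start at 0. The dashed line is the rule's threshold of 7.5. The 2 mutant-labelled arrays that keep Nxnl1 (orange) sit with wild type for Nxnl1 and Nxnl2, but only wild-type array 3 shares their level of Eif2s3y.

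Other sample checks bear on every later result. Markers of rods read 10.59 to 14.48 and of cones 10.01 to 12.52 on the 5 arrays, so the tissue was retina by its photoreceptor genes, while cornea and blood markers stayed at 3.06 to 4.73. Pigment epithelium markers read 6.71 to 13.11 despite the dissection. Wild-type array 1 stood apart. It had the most negative gap between the 5' and 3' probe sets for actin (-1.81, against -1.04 and -0.80 on wild-type 2 and 3, -0.90 on ko/wt 1 and -0.69 on ko/ko 2). Shorter RNA can give such a gap, but its cause was not tested. Wild-type array 1 lay at least 1 log2 unit below both other wild-type arrays for 256 probe sets and above them for 42. It also carried lens transcripts (the gamma-crystallin Crygb read 10.80 there, 5.83 and 4.67 on wild-type 2 and 3, 4.63 on ko/wt 1 and 4.49 on ko/ko 2) and skeletal muscle transcripts (the myosin heavy chain Myh1 read 6.93 there and 3.07 to 3.30 on the other 4). Wild-type array 3 lay at least 1 unit above both other wild-type arrays for 419 probe sets. Crygb and Myh1 were chosen after their values were seen. Of the 3 Myh1 probe sets, the 1 given had the largest rise on wild-type array 1. A second read 6.75 there, while the brightest showed no rise, at 4.32 there and 4.48 to 4.60 on the other 4.

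Across the 45037 probe sets that are no Affymetrix control, 0 (0.0%) differed between the 2 arrays and wild type at a Benjamini-Hochberg adjusted p under 0.05 in limma, and the smallest adjusted p was 0.994. At an unadjusted p under 0.05, limma gave 1240 probe sets (2.75%), of which 735 (1.63%) were higher and 505 (1.12%) lower on the 2 arrays. With no true difference 2252 would be expected at that threshold, so the count was no excess. An ordinary test without moderation also called 0 after adjustment, with 1067 higher and 658 lower at an unadjusted p under 0.05. The split of higher against lower depended on the scaling: it was 608 to 592 after a repeated quantile normalization and 427 to 618 with equal array medians. Groups did not overlap for 4802 probe sets on the higher side (10.7%) and 3853 on the lower (8.56%). A difference of at least 1 log2 unit was seen for 27 probe sets (0.06%), and 52.7% of probe sets had a difference above 0. With the replicate number as a block, 35 probe sets (0.0777%) passed the adjusted threshold, and the labels do not say what a shared number means. Without ko/wt 1 the unadjusted counts were 382 higher and 257 lower, and without ko/ko 2 they were 324 and 249. Without wild-type array 3 they were 1973 and 1753, and 13 probe sets (0.0289%) passed the adjusted threshold.

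Of those 13 calls, 12 were higher and 1 lower on the 2 arrays. They held 6 probe sets of the Y-chromosome genes Eif2s3y, Kdm5d and Uty, 6 probe sets with no single gene name, and Xist as the lower one. With wild-type array 3 as the only control, since it alone among wild type had Eif2s3y above 6, limma called 219 probe sets (0.486%), 13 higher and 206 lower, on the assumption that the lone control varies like the 2 arrays.

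One value stands for each gene from here on, that of its brightest probe set over all 8 arrays, which gave 18193 genes. The median difference over them was -0.014. Of these genes, 181 were higher (0.995%) and 195 lower (1.07%) at an unadjusted p under 0.05, and 0 passed after adjustment. Groups did not overlap for 1659 genes on the higher side (9.12%) and 1829 on the lower (10.1%), and 45.6% of the genes had a difference above 0. A difference of at least 1 was seen for 12 genes (0.066%). At the median gene the 95% interval reached 0.293 to either side of the difference, and from 0.239 to 0.435 between the 10th and 90th percentiles.

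**Figure D2:**
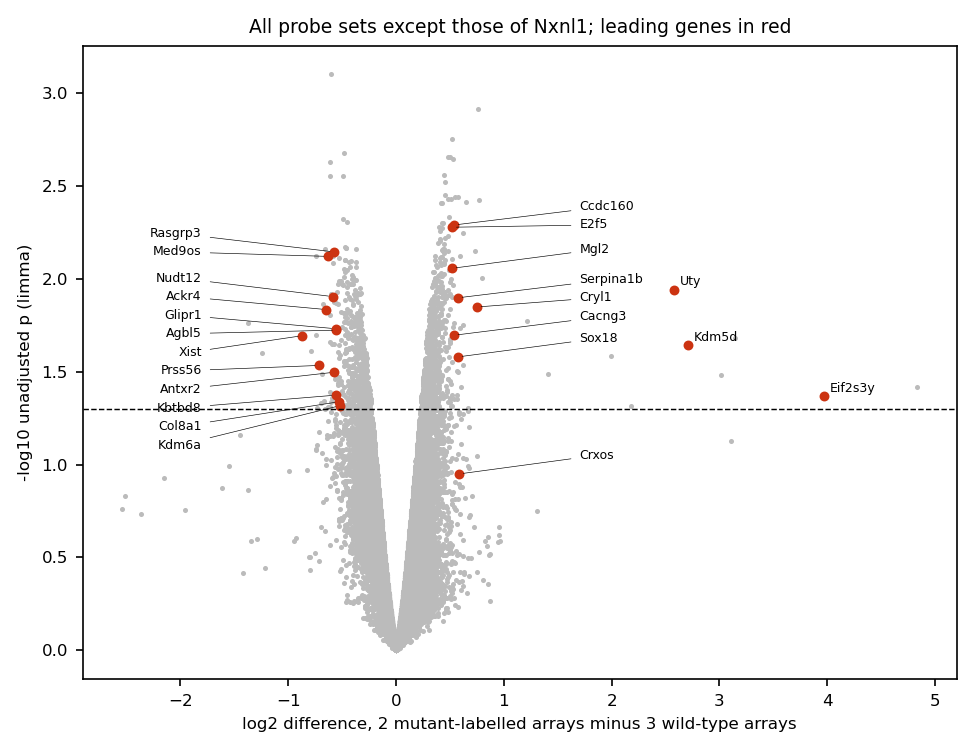
Log2 difference, 2 mutant-labelled arrays minus 3 wild-type arrays (horizontal axis), against -log10 of the unadjusted limma p (vertical axis), 1 point per probe set; Nxnl1 is left out because it chose the arrays. The dashed line marks an unadjusted p of 0.05, and the leading genes are in red. The points far to the right are the Y-linked Uty, Kdm5d and Eif2s3y with further probe sets, and no point passes adjustment.

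The Y-linked genes Eif2s3y, Kdm5d and Uty gave the largest differences among the named genes. Eif2s3y, the Y-encoded subunit of a translation initiation factor, read 3.46, 3.32 and 8.73 on wild-type arrays 1, 2 and 3, 9.13 on ko/wt 1 and 9.14 on ko/ko 2. It was near the bottom of the scale on wild-type arrays 1 and 2 and high on wild-type array 3. Kdm5d, a Y-linked histone demethylase, read 3.05, 3.09 and 6.14 against 6.86 and 6.74. Uty, another Y-linked gene of the histone demethylase family, read 4.33, 4.30 and 6.79 against 7.78 and 7.66. The limma differences were 3.97 (SE 1.57), 2.71 (SE 0.91) and 2.58 (SE 0.74), with unadjusted p of 0.0428, 0.0227 and 0.0114 and an adjusted p of 0.994 each. Without wild-type array 3 the adjusted p were 1.33e-05, 0.000115 and 0.000172. With wild-type array 3 as the only control the differences were 0.41, 0.66 and 0.93. That array was kept there for its Eif2s3y level, and alone among wild type it was high in these 3 genes. Both sets of values therefore follow from which wild-type arrays were kept and are a description. The other 3 mutant-labelled arrays read 7.07, 7.38 and 7.77 for Eif2s3y. The probe sets of the Y-linked genes Zfy2 and Usp9y did not follow these. Zfy2, a zinc finger gene, read 4.85, 4.93 and 5.67 in wild type and 4.26 and 4.81 on the 2 arrays, below wild type without overlap. It was thus no lower on wild-type arrays 1 and 2, where the other Y-linked genes were near the bottom of the scale. Usp9y, a deubiquitinase gene, differed by 0.09 (SE 0.11) with overlap and read only 3.52 to 3.83 on all 8 arrays. Neither probe set therefore tracked the level of Eif2s3y, Kdm5d and Uty. Over the 9 Y-linked genes measured, these included, the median difference was 0.11. Zfy2 was chosen after its values were seen.

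Xist and several X-linked partners of Y-linked genes read lower on the 2 arrays. Xist, the noncoding RNA that coats the inactive X chromosome, read 12.09, 12.65 and 11.61 in wild type and 11.17 and 11.32 on the 2 arrays, a difference of -0.87 (SE 0.28, limma unadjusted p 0.0202, adjusted p 0.994). All 3 of its probe sets were lower. The brightest, given here, stayed above 11 on arrays where the Y-linked genes were high. The dimmer ones read 10.04 and 6.59 on ko/wt 1 and 9.95 and 6.99 on ko/ko 2. Eif2s3x, the X-linked partner of Eif2s3y, read 11.08, 11.10 and 10.79 against 10.63 and 10.43. The demethylase Kdm6a, the X-linked partner of Uty, read 9.89, 9.68 and 9.17 against 9.14 and 8.97. Groups did not overlap for either, with differences of -0.46 (SE 0.14) and -0.52 (SE 0.21). Ddx3x, an RNA helicase, differed by -0.35 (SE 0.13), while Kdm5c, partner of Kdm5d, overlapped at -0.23 (SE 0.13). Of the 9 measured genes of the sex chromosome list, 3 were higher and 4 lower at an unadjusted limma p under 0.05. On the X chromosome 26 of 617 genes (4.21%) had an unadjusted limma p under 0.05, and on chromosome 8, which holds Nxnl1, 10 of 932 (1.07%), against 2.07% of all genes. Groups did not overlap for 57 of the 617 X-linked genes on the higher side and 68 on the lower, both close to the shares of all genes (9.12% and 10.1%). The labels name neither the sex of the mice nor any pooling of retinas, and the part of sex in the other differences was not tested.

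Beyond the Y-linked genes, 8 named genes led the higher side, each with a difference of at least 0.5 and groups that did not overlap; none passed adjustment. Ccdc160, an X-linked gene for a coiled-coil protein, read 5.73, 5.74 and 5.82 in wild type, 6.47 on ko/wt 1 and 6.13 on ko/ko 2, a difference of 0.54 (SE 0.13, limma unadjusted p 0.00513). E2f5, a repressor of the E2F family that controls cell-cycle genes, read 8.45, 8.53 and 8.77 against 9.07 and 9.15. That was seen on 1 of its 3 probe sets. Cryl1, a lambda-crystallin relative that works as a sugar dehydrogenase, read 6.31, 6.92 and 6.16 against 7.22 and 7.21, on 1 of its 4 probe sets. Mgl2, a lectin of macrophages and dendritic cells, read 4.34, 4.65 and 4.61 against 5.18 and 4.93, low on every array. Cacng3, an auxiliary subunit of AMPA receptors, ran from 7.61 to 8.18 in wild type against 8.44 and 8.49, and ko/wt 2 reached 8.58.

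Of the remaining 3, Crxos, a homeobox transcript from the strand opposite Crx, read 6.76, 7.15 and 5.98 in wild type and 7.17 and 7.27 on the 2 arrays. Its difference of 0.59 (SE 0.32) had an unadjusted limma p of 0.112 and was 0.26 without wild-type array 3. Its dimmer probe set read 4.80, 5.21 and 4.65 against 5.64 and 5.68, so both placed the 2 arrays above wild type. Sox18, a transcription factor of endothelium, read 5.06, 4.84 and 4.93 against 5.85 and 5.19. Its difference of 0.58 (SE 0.20) rested largely on ko/wt 1: it was 0.24 without that array and 0.91 without ko/ko 2. Serpina1b, an alpha-1-antitrypsin gene of a family of near-identical copies that a probe set may not separate, read 4.47, 4.13 and 3.94 against 4.69 and 4.82. Its groups were apart on 1 of its 2 probe sets.

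On the lower side 12 named genes led, Xist and Kdm6a among them. Rasgrp3, an activator of Ras signalling, read 5.31, 5.31 and 4.92 in wild type against 4.58 and 4.63, a difference of -0.57 (SE 0.15, limma unadjusted p 0.00716). Its groups were apart on 1 of its 2 probe sets. Med9os, a transcript opposite the Mediator gene Med9, read 6.80, 6.31 and 6.40 against 5.83 and 5.91. Nudt12, an enzyme that hydrolyses NADH, read 5.57, 5.24 and 5.06 against 4.60 and 4.81. Wild-type array 1 was the highest or level with the highest for all 3 of these genes, and the 2 arrays lay close together below wild type. Ackr4, a scavenging receptor for chemokines, read 8.07, 7.63 and 7.47 against 6.93 and 7.22. Its difference was -0.65 (SE 0.20), and 2 of its 3 probe sets were lower without overlap. Glipr1, a secreted protein of the CAP family, read 6.48, 5.94 and 6.06 against 5.69 and 5.51, on 1 of its 2 probe sets. The other differed by 0.13 with overlap.

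Agbl5, a carboxypeptidase that trims glutamate chains from tubulin, read 9.24, 9.10 and 9.24 against 8.35 and 8.92, on 1 of its 3 probe sets. Its difference of -0.55 (SE 0.18) was -0.27 without ko/wt 1 and -0.84 without ko/ko 2. Prss56, a serine protease of Müller glia that influences eye size, read 6.96, 6.72 and 6.44 against 5.61 on ko/wt 1 and 6.38 on ko/ko 2. Only ko/wt 1 stood well below wild type, so that the difference of -0.71 (SE 0.25, limma unadjusted p 0.0293) was -0.32 without it and -1.10 without ko/ko 2. Among the other mutant-labelled arrays Prss56 was also low on ko/wt 2 (5.73) and at 6.70 on ko/ko 1 and ko/ko 3. Antxr2, a receptor of extracellular matrix and anthrax toxin, read 8.09, 7.57 and 7.49 against 7.32 and 6.96. The 3 arrays low in Nxnl1 lay on the opposite side of wild type for Antxr2, at 8.71, 8.87 and 8.77. Kbtbd8, an adaptor of a cullin ubiquitin ligase, differed by -0.56 (SE 0.22) and Col8a1, a short-chain collagen, by -0.53 (SE 0.21). Groups did not overlap on 1 of 2 probe sets for Kbtbd8 and on 1 of 3 for Col8a1. Both differences were -0.35 without wild-type array 1.

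**Figure D3:**
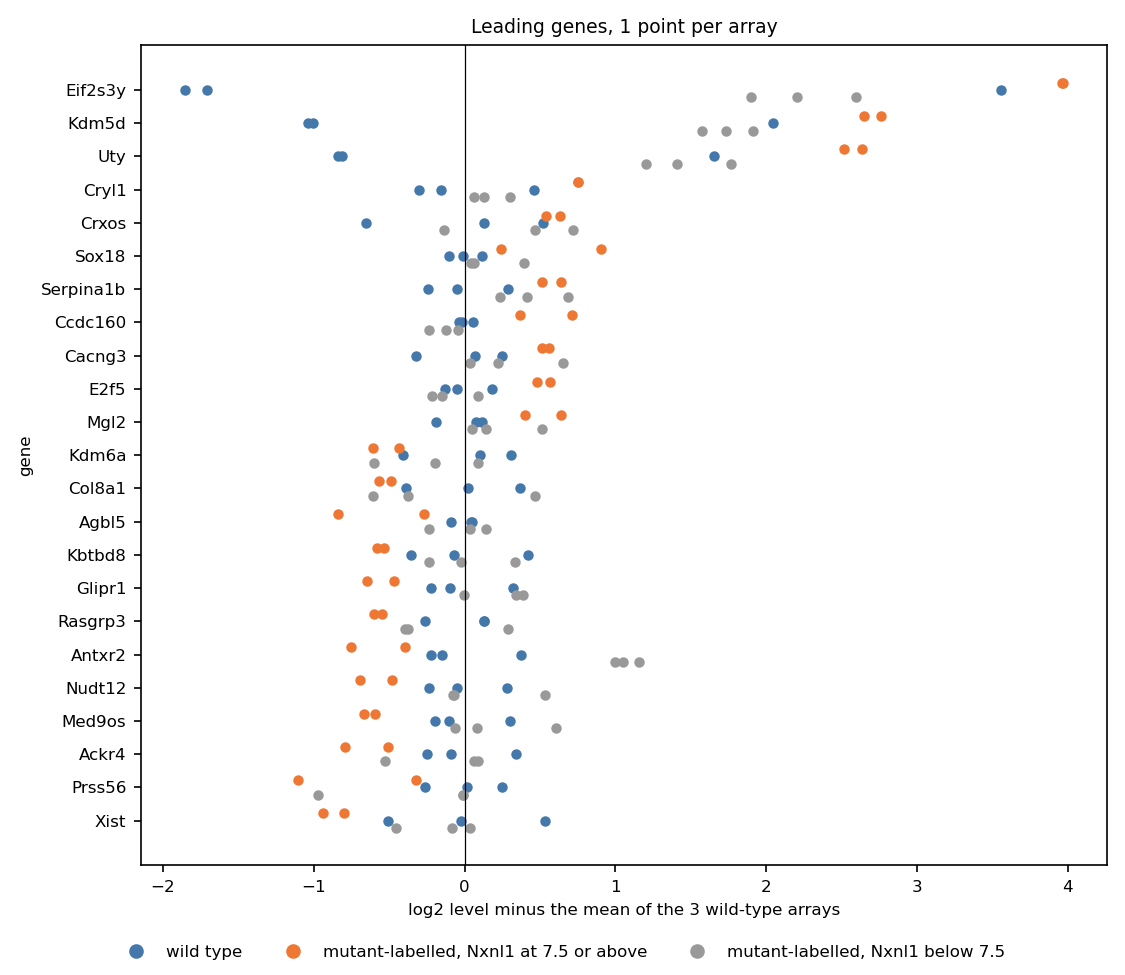
Log2 level minus the mean of the 3 wild-type arrays (horizontal axis) for each leading gene (vertical axis, ordered by difference), 1 point per array; wild type in blue, the 2 mutant-labelled arrays that keep Nxnl1 in orange, the other mutant-labelled arrays in grey. The orange points lie outside the blue ones for every gene, which is how these genes were chosen, and Antxr2 is the gene whose grey points lie farthest on the opposite side.

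Gene lists for cell types and pathways were compared by counts and medians with no test of the list, set beside all genes. In such bulk tissue, fewer cells of a type and less RNA per cell cannot be told apart. Of 28 lists, 8 had a median difference above 0. On 5 of the 28 both arrays lay outside the range of the 3 wild-type medians on the same side. These were bipolar cells, endothelium and pericytes, and the circadian clock above it, and Müller glia and the heat shock and unfolded protein response below it. Single genes stood apart in this way for 9.12% on the higher side and 10.1% on the lower, so 5 of 28 lists is close to the share of single genes. No list member passed adjustment over all probe sets. Leaving out 1 array moved the median by over 1.5 times or turned its sign for 28 of 29 lists, the chromosomal neighbours of Nxnl1 included, and turned the sign for 18. It moved the difference by over 1.5 times for 45 of 95 genes examined in this way. Over all genes, 0.995% were higher and 1.07% lower at an unadjusted limma p under 0.05, and 9.12% were higher and 10.1% lower without overlap; these shares are the background of every count below.

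Photoreceptor genes lay close to wild type. Of 20 rod phototransduction genes 10 lay above 0 and 1 was lower at an unadjusted limma p under 0.05, with a median of 0.0048 that became -0.0046 after quantile normalization and -0.028 with equal array medians. That gene was Gngt1, the gamma subunit of rod transducin, at 13.32, 13.16 and 13.20 in wild type and 12.87 and 12.95 on the 2 arrays, a difference of -0.32 (SE 0.10, unadjusted p 0.0217). Gnb5, a partner of the RGS protein that turns transducin off, differed by 0.19 (SE 0.13) without overlap. Of 15 cone genes 5 lay above 0, 0 had an unadjusted limma p under 0.05 and 0 separated the groups, with a median of -0.047 that was -0.12 without ko/ko 2 and -0.027 without ko/wt 1. Gnb3, the beta subunit of cone transducin, read 11.03, 11.34 and 11.45 against 11.52 and 11.41, and the groups overlapped. Cone opsin Opn1sw read 12.27, 12.22 and 12.52 against 12.36 and 12.30. Of 18 regulators and outer segment structure genes 10 lay above 0, with a median of 0.026 that became -0.0069 with equal array medians. Neurod1, a transcription factor of photoreceptors, was highest on the 2 arrays at 12.89 and 12.86 against 12.58, 12.73 and 12.79.

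The outer synapse and the inner retina showed single genes apart from wild type. Of 15 genes of photoreceptor and bipolar synapses 7 lay above 0 and 1 was lower at an unadjusted limma p under 0.05, with a median of -0.025 that became 0.0040 after quantile normalization. Lrit1, a leucine-rich synaptic protein of photoreceptors, read 11.27, 11.16 and 11.23 against 10.95 and 10.82, a difference of -0.33 (SE 0.10). Cacna1f, the calcium channel of the ribbon synapse, read 10.31, 10.75 and 10.75 against 10.82 and 10.77, which placed it just above all wild-type arrays. Of 18 bipolar genes 12 lay above 0 and 4 were higher without overlap, with a median of 0.073 (0.050 on ko/wt 1 and 0.034 on ko/ko 2, which is the median without ko/wt 1). The highest wild-type median of this list was 0.023. On ko/wt 2, ko/ko 1 and ko/ko 3 it was 0.060, 0.195 and -0.0082. Nfasc, an adhesion molecule of axon initial segments, read 10.58, 10.97 and 10.79 against 11.14 and 11.16, a difference of 0.37 (SE 0.14, limma unadjusted p 0.0328). Bhlhe23, a transcription factor of rod bipolar cells, differed by 0.30 (SE 0.13).

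Amacrine and horizontal cell genes had a median of -0.078 over 21 genes, with 9 above 0, and ganglion cell genes a median of -0.078 over 17, with 6 above 0. Neither held a gene with an unadjusted limma p under 0.05. Calb2, the calcium-binding calretinin, read 11.89, 11.95 and 12.05 against 12.23 and 12.14. Ebf1, a transcription factor, read 8.12, 7.58 and 7.27 against 7.33 and 6.94, and Pou4f1, which marks ganglion cells, 8.12, 7.76 and 7.51 against 7.65 and 7.27. For both, wild-type array 1 was the highest and the groups overlapped. Without that array the medians of the 2 lists were 0.0092 and 0.0026.

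Müller glia, the radial glia that span the retina, had 9 of 22 genes above 0, 3 lower at an unadjusted limma p under 0.05 (1.07% of all genes) and 6 lower without overlap (10.1% of all genes), with 0 higher without overlap. The median was -0.11, from -0.12 on ko/wt 1 and -0.073 on ko/ko 2, and it was -0.038 without wild-type array 1 and -0.073 without ko/wt 1. Sox9, a transcription factor that keeps glial identity, read 7.03, 6.98 and 6.90 in wild type against 6.67 and 6.48, a difference of -0.40 (SE 0.11, unadjusted p 0.00979). Sox2, a transcription factor of progenitors and Müller glia, read 8.82, 8.52 and 8.39 against 8.11 and 8.27, a difference of -0.39 (SE 0.15). Both arrays lay below every wild-type array for these 2 genes, and leaving out any single array kept Sox9 between -0.49 and -0.30. Aqp4, the glial water channel, read 10.01, 9.72 and 9.89 against 9.55 and 9.69. The classical markers did not separate the groups: the retinaldehyde-binding protein Rlbp1 read 11.98, 12.16 and 12.05 against 11.95 and 12.00, and glutamine synthetase Glul 13.12, 13.19 and 13.18 against 13.14 and 13.34.

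Genes of gliosis and retinal stress had a median of -0.11 over 26, which was 0.032 without wild-type array 1, with 11 above 0 and 1 lower at an unadjusted limma p under 0.05. A2m, an acute-phase protease inhibitor, lay at 7.31 or above on all wild-type arrays and at 7.25 or below on both others, a difference of -0.32 (SE 0.13) that was -0.20 without ko/wt 1. Cebpd, a transcription factor of the acute-phase response, read 7.21, 6.58 and 7.06 against 6.64 and 6.38, while the arrays low in Nxnl1 read 8.17, 8.26 and 8.34. Cp, the copper-carrying ferroxidase ceruloplasmin, and Cd44, a hyaluronan receptor of Müller glia, differed by -0.29 (SE 0.13) and -0.30 (SE 0.14), and neither overlapped; the latter was -0.19 without wild-type array 1.

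Immune genes stayed near wild type. Of 26 genes of antigen presentation and interferon response 13 lay above 0, 1 was higher at an unadjusted limma p under 0.05 and 5 were higher without overlap (9.12% of all genes), with a median of -0.0046 that ran from -0.047 without ko/wt 1 to 0.048 without ko/ko 2. Irf7, a transcription factor that drives interferon genes, read 6.65, 6.60 and 6.57 in wild type and 6.97 and 6.95 on the 2 arrays, a difference of 0.35 (SE 0.10, unadjusted p 0.00917) that stayed between 0.33 and 0.37 when any single array was left out. The other mutant-labelled arrays read 6.88, 6.97 and 6.68. Psmb9, an immunoproteasome subunit, and Igtp, an interferon-induced GTPase, differed by 0.24 (SE 0.11) and 0.17 (SE 0.11), both without overlap. Complement genes had a median of -0.026 over 13 with 5 above 0, and microglia and macrophage genes one of -0.029 over 20 with 8 above 0. Neither list held a gene with an unadjusted limma p under 0.05. Cfi, the protease that inactivates complement, read 6.32, 6.16 and 5.88 against 5.87 and 5.78. Cx3cr1, the fractalkine receptor of microglia, read 5.36, 5.36 and 5.31 against 5.43 and 5.58.

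Endothelium and pericyte genes lay above 0 for 18 of 22, against 45.6% of all genes, with a median of 0.093 (0.11 on ko/wt 1 and 0.15 on ko/ko 2). Of them 2 were higher (0.995% of all genes) and 1 lower at an unadjusted limma p under 0.05, and 8 were higher without overlap (9.12% of all genes). Without ko/wt 1 the median was 0.15. The highest wild-type median of this list was 0.026. On ko/wt 2, ko/ko 1 and ko/ko 3 it was 0.017, 0.247 and -0.051. Robo4, a guidance receptor of endothelium, read 4.99, 4.98 and 4.85 against 5.33 and 5.17, a difference of 0.31 (SE 0.11). Kcnj8, a potassium channel of pericytes, differed by 0.28 (SE 0.11), and Eng, an endothelial TGF-beta co-receptor, by 0.23 (SE 0.10). Pdgfrb, the receptor that recruits pericytes, ran the other way at 7.60, 7.26 and 7.25 against 7.02 and 6.77, a difference of -0.48 (SE 0.15, unadjusted p 0.0185). The count above 0 stayed between 16 and 19 of 22 when any single array was left out.

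Tissues that a dissection can carry along varied with the arrays. Genes of the pigment epithelium and choroid lay above 0 for 2 of 21, with a median of -0.24, but the 3 wild-type medians ran from -0.29 to 0.19 and enclosed ko/ko 2 (-0.11), while ko/wt 1 stood at -0.35. Rgr, a retinal G protein-coupled receptor, read 10.74, 10.71 and 10.20 against 9.83 and 10.37. The oligodendrocyte and epithelial gene Ermn read 6.66, 6.49 and 6.07 against 5.50 and 6.24. In both genes ko/wt 1 was the lowest of the 5 and ko/ko 2 fell within wild type. With wild-type array 3 as the only control, the median of this list was 0.054.

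Lens genes had the lowest median of the lists, -0.93 over 19 genes with 1 above 0. The spread came from wild type, whose medians were 1.52, -0.31 and -1.09 on arrays 1, 2 and 3. Crybb2, a beta-crystallin, read 9.05, 6.81 and 6.80 against 6.13 and 6.08, and the alpha-crystallin Cryaa 9.34, 7.09 and 5.77 against 6.12 and 5.45. Without wild-type array 1 the list median was -0.13, with 5 of 19 above 0, and with wild-type array 3 as the only control it was 0.11. The mean level of the list was 5.40 on ko/wt 1 and 5.24 on ko/ko 2, near the 5.30 of wild-type array 3. Cornea, iris and ciliary body genes had a median of 0.025 over 16, which became -0.0019 after quantile normalization and -0.0077 with equal array medians, and the 6 blood genes one of -0.030.

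Thioredoxin-related genes, the wider family of Nxnl1, had a median of -0.054 over 18 with 5 above 0, and none had an unadjusted limma p under 0.05. Glrx2, a mitochondrial glutaredoxin, read 9.21, 8.85 and 8.65 against 8.59 and 8.56. Txnrd1, which regenerates reduced thioredoxin, read 8.48, 8.44 and 8.53 against 8.39 and 8.19. Groups did not overlap for either, with differences of -0.33 (SE 0.17) and -0.19 (SE 0.11). The former was -0.18 without wild-type array 1 and the latter -0.091 without ko/ko 2. Txnip, the inhibitor of thioredoxin, overlapped at 6.87, 6.88 and 6.73 against 6.53 and 6.75. Antioxidant and glutathione genes had a median of -0.035 over 26 with 9 above 0, and 0.024 with 15 above 0 without wild-type array 1. Cat, the peroxisomal catalase, read 7.85, 7.78 and 7.45 against 7.29 and 7.36, a difference of -0.37 (SE 0.14, limma unadjusted p 0.0391).

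Genes of glucose and lactate handling, the arm of metabolism through which the short Nxnl1 product acts on cones, had 10 of 21 above 0, with a median of -0.0042 that became 0.016 after quantile normalization. Slc2a1, the main glucose transporter of photoreceptors, read 11.12, 10.84 and 10.91 against 10.71 and 10.85. The lactate transporter Slc16a1 read 12.13, 12.01 and 12.08 against 11.94 and 11.96. The latter pair lay just below wild type, with a difference of -0.12 (SE 0.10). Oxidative phosphorylation genes had a median of -0.0076 over 25, which became 0.025 after quantile normalization, and 11 above 0. Uqcrc1, a core subunit of complex III, differed by 0.23 (SE 0.11) without overlap. Neither list held a gene with an unadjusted limma p under 0.05.

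Heat shock and unfolded protein response genes lay above 0 for 3 of 24, with 2 lower at an unadjusted limma p under 0.05 and 9 lower without overlap (against 10.1% of all genes). The median was -0.16, from -0.20 on ko/wt 1 and -0.14 on ko/ko 2. Hsp90b1, the chaperone of the endoplasmic reticulum, read 11.31, 11.30 and 11.28 against 10.94 and 10.99, a difference of -0.33 (SE 0.09, unadjusted p 0.0112) that kept to -0.35 to -0.31 when any single array was left out. Hspa1b, an inducible heat shock protein, read 10.99, 10.60 and 10.51 against 10.16 and 10.37, a difference of -0.43 (SE 0.17) that was -0.29 without wild-type array 1. Its near-identical copy Hspa1a read 9.70, 9.54 and 9.47 against 9.35 and 9.32, and the probe sets may not separate them. Dnajc3, a cochaperone of the unfolded protein response, read 9.01, 8.74 and 8.75 against 8.55 and 8.61. Without wild-type array 1 the median was -0.070, with 6 of 24 above 0.

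Immediate early genes, which respond within minutes to light or handling, had 13 of 24 above 0 and a median of 0.026 that became -0.0065 with equal array medians and -0.061 without wild-type array 1. Jun, a subunit of the AP-1 transcription factor, read 8.76, 8.85 and 8.67 against 8.57 and 8.25. Ccn2, a matricellular growth factor, read 8.13, 8.08 and 8.16 against 7.94 and 7.58. Both had an unadjusted limma p under 0.05 and lay lowest on ko/ko 2, without which the differences of -0.35 and -0.36 were -0.19 and -0.18. Circadian clock genes lay above 0 for 15 of 20, with a median of 0.079 and 5 higher without overlap (9.12% of all genes). Without ko/wt 1 it was 12 of 20 with a median of 0.042. The rise was not particular to the 2 arrays. On ko/wt 2, ko/ko 1 and ko/ko 3 the list medians were 0.011, 0.051 and 0.063, also above the highest wild-type median of 0.0077. Ciart, a repressor of the clock, read 7.11, 7.25 and 7.08 against 7.53 and 7.35, a difference of 0.29 (SE 0.11). Drd4, the rhythmic dopamine receptor of photoreceptors, read 11.76, 12.00 and 11.86 against 12.11 and 12.13, while the arrays low in Nxnl1 read 11.65, 11.74 and 11.68. The labels give no time of day for the dissection.

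Apoptosis genes had 6 of 22 above 0 with a median of -0.051 (0.00040 without wild-type array 1), and none had an unadjusted limma p under 0.05. Mcl1, a survival factor of the Bcl2 family, read 10.28, 9.74 and 9.96 against 9.62 and 9.72. Splicing factors lay above 0 for 16 of 23 with a median of 0.094, but for 9 of 23 with a median of -0.048 without wild-type array 1. Srsf3 and Srsf10, serine- and arginine-rich splicing factors, ran below wild type: Srsf3 read 11.63, 11.54 and 11.58 against 11.33 and 11.28, and Srsf10 9.56, 9.33 and 9.25 against 9.14 and 8.99. Both had an unadjusted limma p under 0.05. Son, a scaffold of nuclear speckles, read 12.21, 12.46 and 12.37 in wild type, 13.19 on ko/wt 1 and 12.42 on ko/ko 2. On the arrays low in Nxnl1 it read 13.03, 13.02 and 13.15, so that ko/wt 1 sat with those and ko/ko 2 with wild type. On a dimmer probe set, ko/wt 1 read 8.11 and ko/ko 2 7.11, with 7.01 to 7.33 in wild type. On another, ko/wt 1 read 9.79, near the 9.60 of wild-type array 1 and below the 10.08 to 10.41 of the arrays low in Nxnl1. Cytosolic ribosomal protein genes had 2 of 18 above 0 and a median of -0.073, and 8 of 18 with a median of -0.010 without wild-type array 1.

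The 40 measured genes nearest Nxnl1 on its chromosome, 20 on each side, had 18 above 0, a median of -0.013 and none with an unadjusted limma p under 0.05. Groups did not overlap for 5 on the higher side and 1 on the lower. Ushbp1, a PDZ-binding protein, read 4.54, 4.58 and 4.73 against 4.79 and 4.93. The lower one was Kcnn1, a small-conductance potassium channel, at 6.46, 6.38 and 6.43 against 6.32 and 6.08. Over all genes the median was -0.014.

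**Figure D4:**
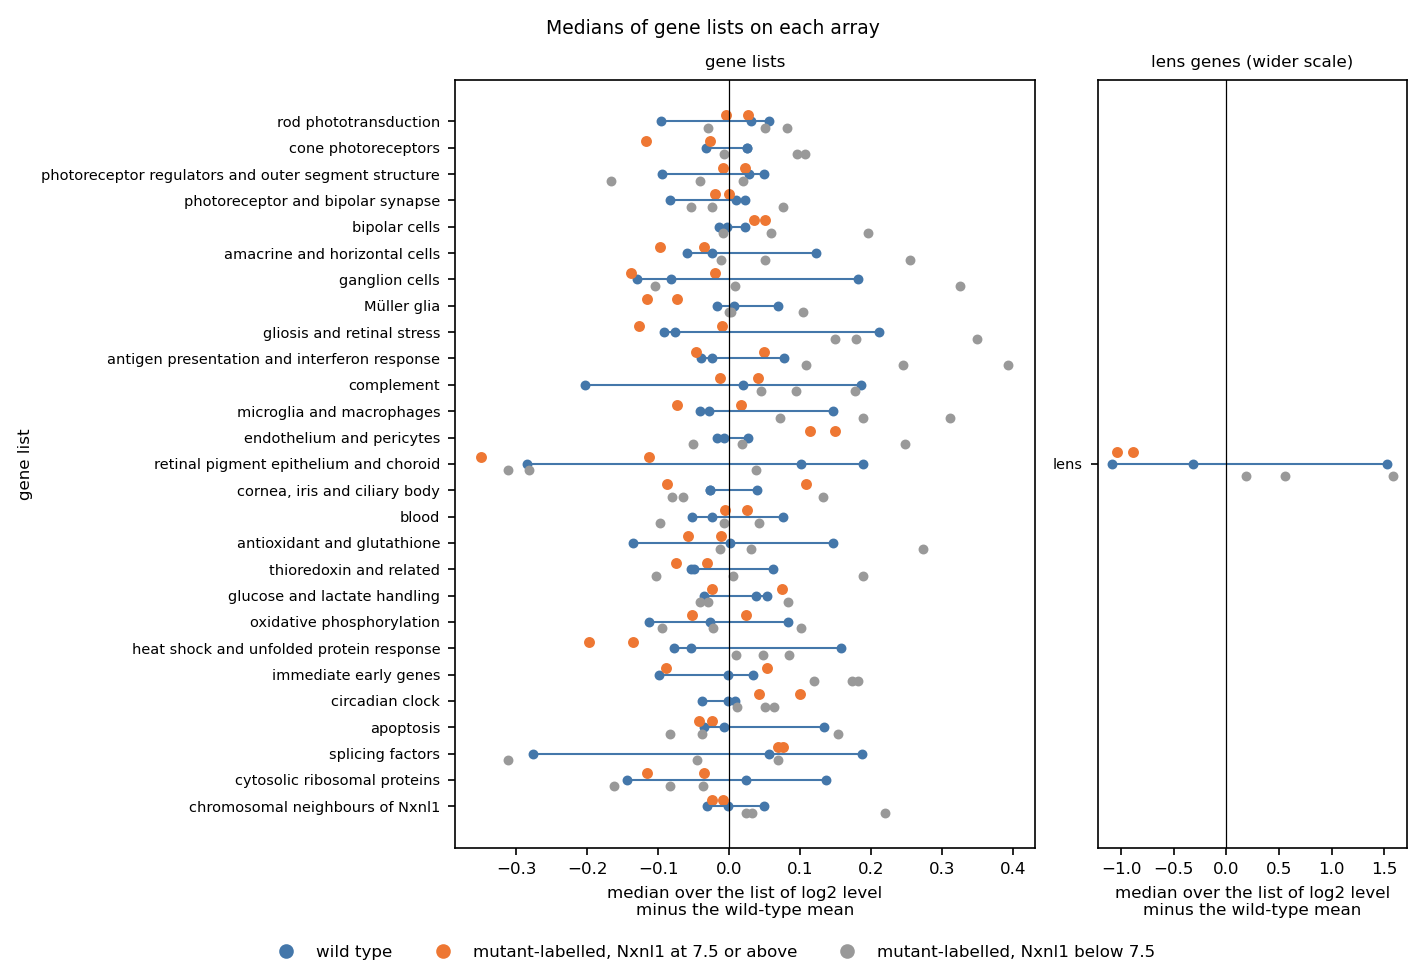
Median over each gene list of the log2 level minus the mean of the 3 wild-type arrays (horizontal axis), 1 row per list and 1 point per array; lens genes have a wider scale of their own at the right. Blue points and the line joining them are wild type, orange the 2 mutant-labelled arrays that keep Nxnl1, grey the other mutant-labelled arrays. Both orange points leave the blue range on the same side on 5 lists. Among these are endothelium and pericytes on the right and heat shock and unfolded protein response on the left. That number is close to the share of single genes whose groups did not overlap. The wild-type lens medians run from -1.09 to 1.52.

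Transcripts that stand apart on the arrays low in Nxnl1 did not share those levels here, except Son on ko/wt 1. Edn2, the stress signal endothelin 2, read 4.38, 5.06 and 6.03 in wild type, 5.36 on ko/wt 1 and 4.96 on ko/ko 2, but 8.18, 7.63 and 8.68 on the other mutant-labelled arrays. Nudt6, a nudix hydrolase, read 7.76, 7.73 and 8.14 against 7.64 and 7.66, with 9.20, 9.20 and 9.18 on the other 3. Rdh9, a retinol dehydrogenase, read 5.84, 6.15 and 6.08 against 6.09 and 6.20, with 7.08, 7.31 and 7.33 on the others. The 2 arrays overlapped wild type for Edn2 and Rdh9 and lay just below it for Nudt6, and for all 3 genes they were well under the others. Of 12 such genes examined, 11 were higher on each array low in Nxnl1 than on any of the 5 arrays compared here, Son being the exception through ko/wt 1. Among the 12, Antxr2 and Ccn2, given above, lay below wild type without overlap here, and Cebpd differed by -0.44 (SE 0.20) with overlap. The 12 were chosen from what was known of those arrays, so the gap between the groups is a description.

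The small heat shock protein Cryab read 10.35, 9.53 and 9.03 in wild type and 9.01 and 9.29 on the 2 arrays, overlapping, with a difference of -0.48 (SE 0.36). Gpx3, a secreted glutathione peroxidase, differed by 0.12 (SE 0.16). Serping1, the inhibitor of the first complement component, read 5.87, 5.59 and 5.62 against 5.90 and 6.08, and the groups did not overlap. Its difference of 0.30 (SE 0.13, 95% interval -0.015 to 0.61) did not reach the 6.20, 6.67 and 6.61 of the arrays low in Nxnl1.

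Despite their different labels, the 2 arrays were the closest of the 28 pairs when probe sets differing by at least 1 log2 unit were counted. They differed in 16 (0.0355%), against 328 to 1602 between pairs of wild-type arrays and 16 to 2059 over all pairs. The next fewest were with wild-type array 2, 41 for ko/wt 1 and 39 for ko/ko 2, and both were far from wild-type array 1, with 646 and 793. By the median absolute difference over probe sets, ko/wt 1 was closer to wild-type array 2 (0.111) than to ko/ko 2 (0.120). The correlation over probe sets, which are not independent replicates, was 0.996 between the 2 arrays, 0.996 between each of them and wild-type array 2, and 0.982 to 0.992 within wild type. Closeness to wild-type array 2 was not particular to the 2 arrays. Its correlation was 0.9964 with ko/ko 3, 0.9955 with ko/wt 2 and 0.9861 with ko/ko 1. The median absolute differences from it were 0.1115, 0.1167 and 0.1855 in the same order. Few probe sets fell more than 1 unit outside the wild-type range, 1 on each of the 2 arrays, against 9, 266 and 17 on ko/wt 2, ko/ko 1 and ko/ko 3. By any amount, 42.9% of probe sets lay outside that range on ko/wt 1 and 45.3% on ko/ko 2. The shares were 37.7%, 57.3% and 40.6% on ko/wt 2, ko/ko 1 and ko/ko 3, so by this count the 2 arrays were not nearer wild type than all of those.

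**Figure D5:**
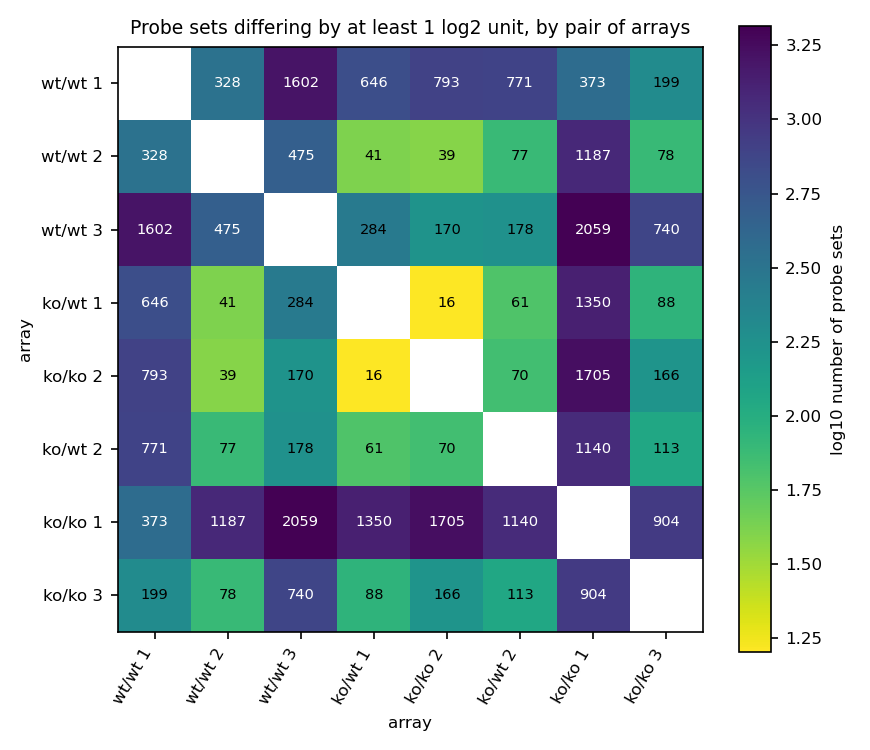
Number of probe sets that differ by at least 1 log2 unit for each pair of the 8 arrays (both axes list the arrays), coloured by log10 of that number. The pair ko/wt 1 and ko/ko 2 has the smallest number, 16, and wild-type array 3 with ko/ko 1 the largest, 2059.

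The 16 probe sets that set the 2 arrays apart were 14 higher on ko/ko 2 and 2 higher on ko/wt 1. The rapid-response genes led. Fos, a subunit of AP-1, read 9.10 on ko/wt 1 and 10.84 on ko/ko 2, both within the wild-type values of 8.34, 10.09 and 11.27. Egr1, another immediate early transcription factor, read 10.78 and 12.35, within 8.07, 10.82 and 13.18. Wild type thus spread more widely for both genes than these 2 arrays did. Fam107a, an actin-associated protein of astrocytes, read 7.37 and 8.69, and Pea15a, an adaptor of MAP kinase and death signalling, 10.44 and 11.61. For both, ko/wt 1 lay below all wild-type arrays, whose values were 8.99, 8.31 and 7.64 for Fam107a and 11.47, 11.54 and 10.99 for Pea15a. Norad, a cytoplasmic long noncoding RNA, read 6.06 and 7.23, within the wild-type range, which reached 7.84. The second of the 2 probe sets higher on ko/wt 1, beside that of Son, was of the beta-crystallin Cryba1, at 5.57 and 4.32. These genes were chosen after their values were seen, and with 1 array of each label their differences have no test.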

How the data were processed

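Expression was deposited as a log2 matrix of probe sets by arrays; the authors obtained it with RMA, per the submitters' processing notes. That method corrects background, equalises the distributions of arrays and summarises probes, so every difference is relative to the bulk of transcripts. Neither its version nor whether the ninth sample entered it is stated there. Values ran from 2.50 to 14.57, with array medians of 6.11 to 6.21, and the number of arrays limits the precision.

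Of 45101 probe sets, 64 controls were left out. Platform annotation gave 1 gene symbol to 34945 of the rest, several to 932 and none to 9160; 34741 symbols were updated through gene identifiers, and chromosomes came from RefSeq for GRCm38. The arrays were those of the rule described with the results. Differences between the groups were fitted with limma 3.58.1 in R 4.3.3 (lmFit and eBayes, 3 residual and 3.42 prior degrees of freedom, two-sided) and adjusted by Benjamini-Hochberg over 45037 probe sets at 0.05. SE is limma's moderated standard error. Nxnl2 was compared by exact permutation (scipy 1.17.1). The fit was tested on simulated data drawn independently for each probe set and array. That test does not cover effects that an array shares over many probe sets.

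The arrays, the 28 gene lists (611 entries, 546 measured) and the list of chromosomal neighbours were chosen with earlier results of these data known. Named genes were Nxnl1, Nxnl2, and per direction up to 12 genes past the adjusted threshold or, failing that, those of smallest unadjusted p with a difference of at least 0.5 and groups that did not overlap; up to 4 members of smallest p per list; and the sample checks. Uncharacterised names were skipped. Alternatives were equal array medians, quantile normalization repeated on the 5 arrays, dropping dim probe sets, a variance trend, a robust prior, array weights, all 8 arrays in the fit, the replicate number as a block, each array left out in turn, an ordinary test, a minimum fold of 1.5, the actin difference as a covariate, only arrays with Eif2s3y above 6, and the mean of a gene's probe sets.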

Additional observations from a re-analysis of the deposited data

How the results depend on the processing

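No probe set passed the adjusted threshold in limma under 14 of the 17 alternatives; the exceptions were 13 without wild-type array 3, 35 with the replicate number as a block and 219 with wild-type array 3 as the only control, so over the arrays left out in turn the count ran from 0 to 13. The counts at an unadjusted p under 0.05 (735 higher, 505 lower) ran from 324 to 1973 higher and from 249 to 1753 lower over the arrays left out in turn. They were 427 higher with equal array medians, 212 and 241 without dim probe sets, 2384 and 1847 with array weights, 2810 and 2372 with the replicate block, 7 and 0 with a minimum fold of 1.5, 909 lower with the actin covariate, and 2018 and 2588 with wild-type array 3 as the only control. The cause of these shifts was not tested, except that the dim filter left 22519 probe sets and that the minimum fold sets a stricter null. With 2 mutant-labelled arrays the deviations of one mirror those of the other, so the correlation of same-numbered arrays (0.14 for number 1 and -0.010 for number 2) cannot show or exclude a pairing, and the labels give none. The replicate block leaves wild-type array 3 without a partner, and of its 35 calls 26 were higher and 7 were Y-linked.

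The difference of Nxnl2 (-0.0055) ran from -0.10 to 0.090 over the arrays left out in turn, and changed sign to 0.026 after quantile normalization, 0.083 without wild-type array 2, 0.090 without ko/wt 1 and 0.045 with wild-type array 3 as the only control, where Cryaa turned from -1.62 to 0.011. Every leading gene kept its sign under each alternative that tested it. Of 29 list medians, 16 changed sign without wild-type array 1, 17 with the actin covariate, 19 with wild-type array 3 as the only control, and 7 or fewer under each other alternative.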
